A study of Mus musculus with 12 samples.

Results

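Gene expression in the liver was compared between mice that lack mTR, the RNA template of telomerase encoded by Terc, and their wild-type littermates. The comparison was defined by the sample labels: 3 arrays of mTR knock-out (KO) animals against 3 arrays of mTR wild-type (WT) animals, 6 of the 12 arrays of the series. The other 6 come from a knock-out of mTERT, the reverse transcriptase of telomerase, and its own wild-type littermates, and are used only where the lines are set side by side. All mice were males of the C57BL/6J strain and were matched for age, which is not given in the sources used here. The knock-outs of both lines were of the first generation (G1), and the mice received no treatment. Each number from 1 to 3 marks a set, that is a WT and a KO animal stated to be littermates, so that set 1 of the mTR line holds mTR KO 1 and mTR WT 1. Whole liver was homogenized, and the array reads the RNA of all its cells together, so fewer cells of a type and less RNA per cell cannot be told apart. Which part of Terc the deletion removes is not given in the sources used here.

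Telomerase copies telomere repeats onto chromosome ends, with mTR as the template and mTERT as the enzyme. A complex of proteins called shelterin covers the repeats and keeps the ends from being read as DNA breaks, and a telomere that becomes too short activates the kinases ATM and ATR, then p53, the cell cycle inhibitor p21 and other p53 targets. Inbred laboratory mice have long telomeres, and mice without telomerase inherit them from heterozygous parents, so the first generation is generally used to ask what loss of the enzyme does before telomeres are short. Adult hepatocytes divide rarely and express little telomerase.

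The values are deposited log2 intensities of 28853 probe sets, called probes here. Array medians of the 6 arrays lay between 4.37 and 4.43, and pairs of arrays correlated at 0.975 to 0.995. A background level of 4.34 was taken from the olfactory receptor genes, silent in liver, as the mean 95th percentile of their probes over all 12 arrays of the series. The hepatocyte markers, such as albumin, averaged 12.35 to 12.61 in each array, and 0 of the 13 genes were below background, as the liver label requires. Arrays differed, however, in RNA of other tissue. The mean of 16 genes of the exocrine pancreas, which encode digestive enzymes, reached 10.35 in the array of mTR KO 1 and 6.42 in that of mTR WT 2, while the remaining arrays read 3.86 to 3.90. For 11 bile duct genes the array means were 4.77 for mTR KO 1, 4.60 for both mTR WT 2 and WT 3, and 4.17 to 4.22 elsewhere. Of these 11 genes, 6 were below background in all 6 arrays, and the list means include Dmbt1, a glycoprotein gene of ducts and glands. Its difference was the lowest of the list, at −0.761 against a list median of −0.0544. Dmbt1 read 9.34, 3.80 and 3.78 in KO against 5.28, 6.82 and 7.10 in WT. Its set differences had opposite signs, 4.06, −3.02 and −3.32, and its mean difference was −0.76 (SE 1.46). Small nucleolar RNAs, which guide chemical modification of ribosomal RNA, averaged 6.56 and 6.44 in KO and WT of set 1 and 5.21 to 5.34 in the other arrays. Some values are given below also without mTR KO 1 and mTR WT 2.

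**Figure D1:**
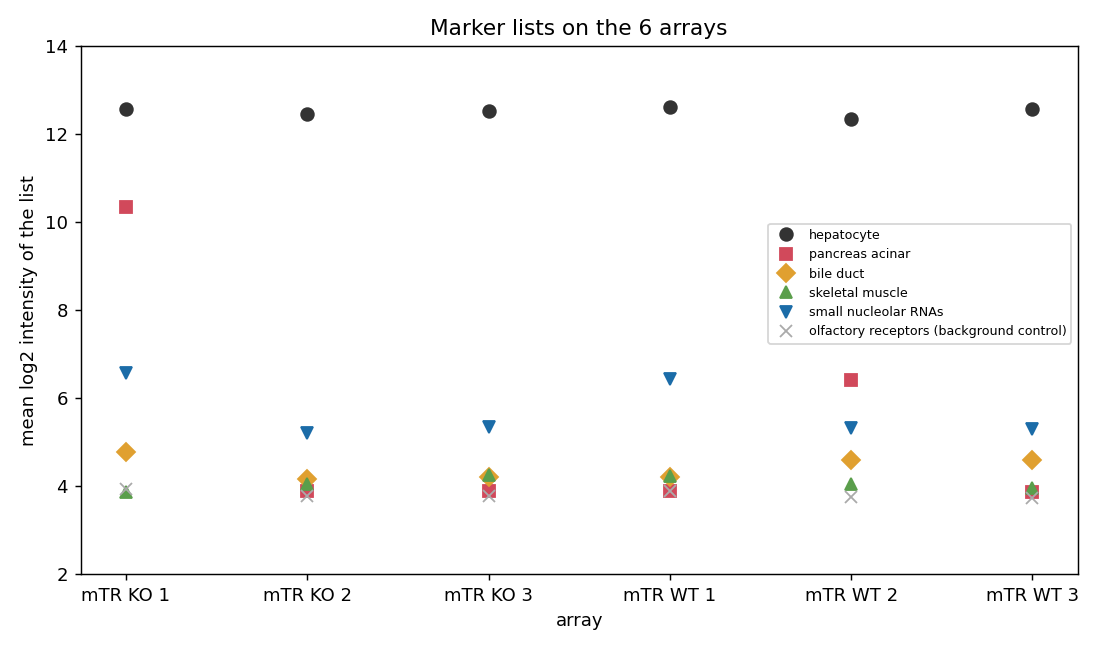
Mean log2 intensity (vertical axis) of 6 gene lists on the 3 mTR KO and 3 mTR WT arrays (horizontal axis), 1 point per list and array. The pancreas list reaches 10.35 in mTR KO 1 and 6.42 in mTR WT 2 and stays at 3.86 to 3.90 elsewhere, while the hepatocyte list varies only from 12.35 to 12.61.

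The deleted gene could not be followed with this array. The Terc probe read 4.33, 4.18 and 3.87 in the KO of sets 1, 2 and 3 and 4.12, 4.24 and 4.22 in their WT littermates. All 6 values lay below the background level of 4.34, so the probe did not register Terc above background in any animal. The difference of −0.06 (limma SE 0.125) therefore checks nothing about the label. Tert, the gene of the partner enzyme, read 4.71, 4.90 and 5.02 in KO against 4.58, 4.84 and 5.04 in WT, a difference of 0.05 (SE 0.183, 95% interval −0.35 to 0.45). The groups overlapped, and set 1 held the lowest value of each. Of the 20 measured genes that flank Terc on chromosome 3, 10 on each side, 11 lay above 0. Their median difference was 0.0043, their range −0.22 to 0.31, and none of the 13 tested had an unadjusted p under 0.05. The neighbour at 0.31, BC107364, was too dim to be tested.

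Across the genome no probe separated KO from WT in the test used. limma called 0 of 20197 tested probes (0%) at a Benjamini-Hochberg adjusted p under 0.05, and the adjusted p was 1 for each. At an unadjusted p under 0.05 there were 195 probes (0.965% of those tested), 78 higher (0.386%) and 117 lower in KO (0.579%). With the littermate set as a replicate block the call was again 0, the smallest adjusted p was 0.999, and 851 probes (4.21%) had an unadjusted p under 0.05. Counts of list members at such a p are given below for the fit without the block unless the block is named. The groups did not overlap at 905 probes (4.48%), with KO above WT at 371 (1.84%) and below at 534 (2.64%). For 3 arrays against 3 the smallest p that an exact permutation can give is 0.1, so the lack of overlap alone is weak separation. No permutation was run. KO was higher than its own littermate in all 3 sets at 2138 probes (10.6%) and lower in all 3 at 2997 (14.8%). A difference of over 0.25 log2 units in all 3 sets was present at 25 probes in the higher direction (0.124%) and at 42 in the lower (0.208%). The median difference over tested probes was −0.0103. The precision was moderate: the median 95% interval reached 0.307 log2 units to either side, which is 1.24-fold, and for 84.3% of tested probes the whole interval lay within a 1.5-fold change. The sets were not alike across probes. Over tested probes, as a description, the differences of set 1 and set 2 correlated at −0.487, those of set 1 and set 3 at 0.0494, and those of set 2 and set 3 at 0.0511, and the pancreas-bearing arrays are the KO of set 1 and the WT of set 2. Values given below are differences that did not pass this test.

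Neither the genes of the telomerase particle nor those of telomere protection held a called member. Of 13 measured telomerase genes 7 lay above 0 and 6 below, with a median of 0.0283, and none was called. Among the proteins that bind the RNA and stabilize it, the dyskerin gene Dkc1 differed by 0.00 (95% interval −0.72 to 0.72) and Nop10 by 0.10 (−0.47 to 0.67). The assembly ATPase gene Ruvbl2 had the largest difference of the list, 0.19 (SE 0.128), with sets at −0.21, 0.38 and 0.40. Pinx1, whose protein inhibits telomerase, differed by 0.14 (SE 0.135), with set 1 at −0.12 against 0.24 and 0.29. The whole 95% interval lay within 1.5-fold for 11 of the 13 and within 2-fold for all 13.

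Of 12 genes of shelterin, of the CST complex that completes the opposite strand, and of accessory telomere factors, 11 lay below 0 and 1, Ctc1, above. The median was −0.0708, and 7 of 12 were lower than the littermate in all 3 sets, where 13.5% of all genes were. None was called and none had an unadjusted p under 0.05, while the replicate block gave 1 such member, Terf1. Terf1, the double-strand repeat binder, read 6.11, 6.79 and 6.74 in KO against 6.32, 6.99 and 7.05 in WT. Its sets differed by −0.21, −0.19 and −0.32, but set 1 was low in both genotypes and the groups overlapped (−0.24, SE 0.302). Without mTR KO 1 and mTR WT 2, which leaves unmatched sets, it was 0.08, and it was −0.02 without mTR KO 1 alone. Stn1 of the CST complex read 4.37, 4.76 and 4.74 in KO against 4.72, 4.87 and 4.83 in WT (−0.18, SE 0.112). Pot1b, a single-strand binder, differed by −0.17 (SE 0.109), and the helicase gene Rtel1 by −0.14 (SE 0.104). Without mTR KO 1, Stn1 was −0.05, while Pot1b and Rtel1 were both −0.23. All 12 intervals lay within 2-fold, and 10 within 1.5-fold. In the mTERT line 8 of the same 12 lay above 0, with a median of 0.0288.

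**Figure D2:**
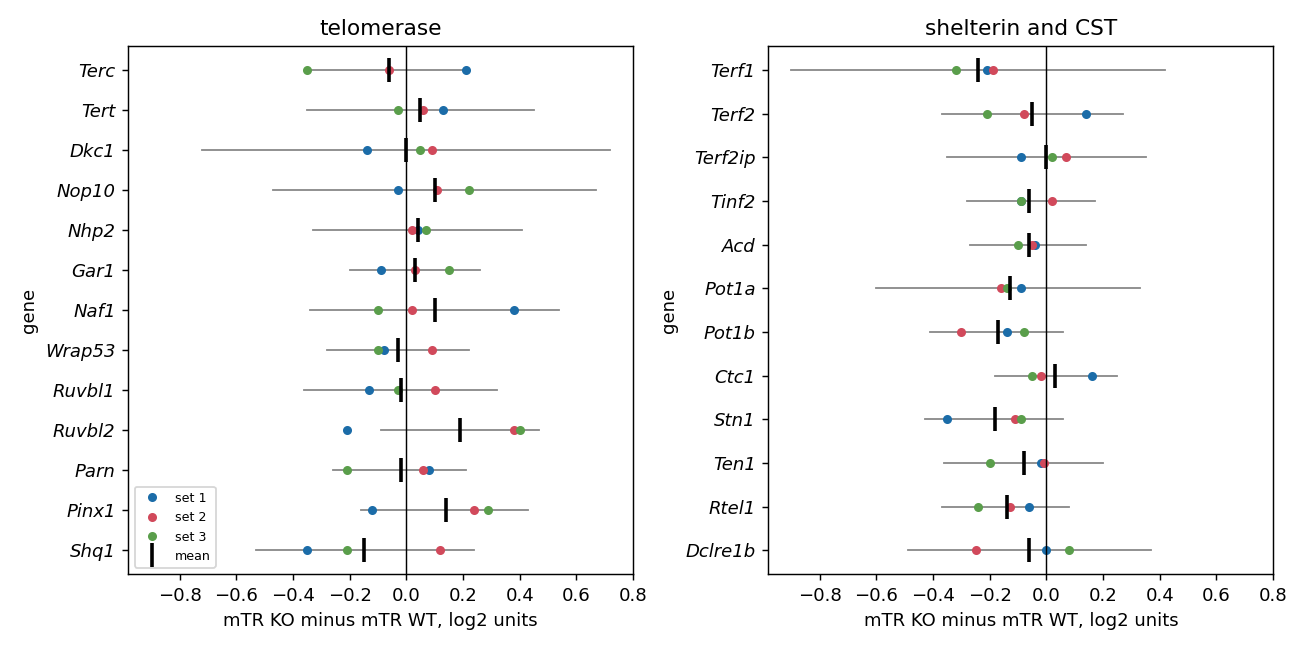
KO minus WT in log2 units (horizontal axis) for each measured telomerase gene and each shelterin, CST or accessory gene (vertical axis); coloured points are the 3 littermate sets, black ticks the mean, grey lines the 95% interval of the limma fit. All 25 intervals include 0, and 11 of the 12 ticks on the right lie below it.

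Targets of p53, a main readout of telomere damage, lay on both sides of 0. Of 23 measured p53 targets 9 lay above 0 and 14 below (median −0.0308), none was called and none had an unadjusted p under 0.05. The groups did not overlap for 2 of the 23, with KO lower, where 2.65% of all genes were. In all 3 sets 4 were lower, where 13.5% of all genes were, and 0 were higher, where 12.3% were. Mdm2, whose protein degrades p53 and whose gene p53 induces, differed by 0.06 (SE 0.167, 95% interval −0.30 to 0.43), and the cyclin G1 gene Ccng1 by −0.11 (SE 0.179), or 0.16 without mTR KO 1 and mTR WT 2. For 17 of the 21 tested targets the interval lay within 1.5-fold, and for 20 within 2-fold. The p21 gene Cdkn1a had no probe with a single gene symbol and was not analysed here. Of 27 genes of damage signalling and repair 12 lay above 0 (median −0.00922, and 0.0459 without mTR KO 1 and mTR WT 2). The kinase gene Atm read 5.38, 5.65 and 5.89 in KO against 5.63, 5.75 and 6.05 in WT, lower in each set (−0.17, SE 0.176, and −0.04 without mTR KO 1). The end-joining gene Xrcc4 also differed by −0.17 (SE 0.172, and −0.08 without mTR KO 1). Its partner ligase gene Lig4 differed by 0.20 (SE 0.148) through set 3 alone, at 0.64 against −0.01 and −0.03.

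Of 25 proliferation genes 12 lay above 0 (median −0.00876), and for 11 the mean over all 12 arrays of the series was below background. Rrm2, a ribonucleotide reductase subunit gene, differed by −0.25 (SE 0.118) without overlap between groups, and Mcm2, a subunit gene of the replicative helicase, by 0.19 (SE 0.116). Of 15 genes of senescence and its secreted factors 9 lay above 0 (median 0.0345), and 8 were below background by the same mean. None had an unadjusted p under 0.05, with 1, Il1a, lower at such a p under the replicate block. Among all 19938 genes, 1 probe each, 49.3% lay above 0, with a median of −0.00156. Of the 14159 tested genes 44% lay above 0 and 148 (1.05%) had an unadjusted p under 0.05. The groups did not overlap for 5.58% of all genes, with KO higher for 2.93% and lower for 2.65%. These shares are the background for the counts of list members.

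The genes with the smallest p among those whose groups did not overlap were next described by what they encode. They were chosen on this contrast, so their separation is a description, and each had an adjusted p of 1. On the higher side the first was Tfrc, the transferrin receptor through which cells take up iron. It read 7.50, 7.82 and 7.77 in KO against 7.05, 7.18 and 7.09 in WT. Every KO animal stood above every WT animal, by 0.45, 0.63 and 0.68 within sets, and the mean difference of 0.59 (SE 0.164, 95% interval 0.23 to 0.95) is 1.5-fold. Leaving out single arrays moved it between 0.53 and 0.69, and it was 0.73 without mTR KO 1 and mTR WT 2. The erythroid list, whose cells are rich in Tfrc, averaged 4.65 to 4.75 in the 6 arrays, with Slc4a1, Gata1, Rhag and Epb42 below background in all 6. Only 6 of its 13 listed genes were measured. Of these 6, 4 lay above 0 (median 0.0494). For 1 the groups did not overlap, with KO higher, where 2.93% of all genes were. A part of these cells in the Tfrc difference was not tested.

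The other genes of the iron pathway lay on both sides of 0. In hepatocytes iron enters through transferrin receptors and metal transporters, is stored in ferritin, leaves through ferroportin, and is sensed through bone morphogenetic protein signals that drive hepcidin. Of 27 measured iron genes 14 lay above 0 and 13 below (median 0.00487), and Tfrc was the only one with an unadjusted p under 0.05. With the replicate block, 2 members were higher at such a p, Tfrc and Slc11a2, and 2 lower, Bmpr1a and Ireb2. The median over the list was −0.0119 without mTR KO 1 and mTR WT 2. The endosomal iron transporter gene Slc11a2 read 6.77, 6.99 and 6.89 in KO against 6.73, 6.41 and 6.59 in WT. Its groups did not overlap, but set 1 differed by only 0.04, and the mean difference was 0.31 (SE 0.162). The hepcidin gene Hamp differed by 0.12 (SE 0.432), with a 95% interval of −0.83 to 1.06 that spans changes in either direction, and it was −0.09 without mTR KO 1 and mTR WT 2. Upstream of it, the ligand gene Bmp6 differed by 0.11 (SE 0.11) and the receptor gene Bmpr1a by −0.27 (SE 0.179), the latter lower in all 3 sets but −0.01 without those arrays.

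Fcgr3, an activating receptor for antibody on macrophages, came next. It read 5.54, 5.54 and 5.52 in KO against 5.09, 5.18 and 5.04 in WT. The KO values were nearly equal and all above WT, a difference of 0.44 (SE 0.124). The macrophage list gave other values: 10 of 22 genes lay above 0, the median was −0.0219 (0.0577 without mTR KO 1 and mTR WT 2), and the array means of 6.76 to 6.93 overlapped between groups. Gxylt1, which adds xylose to Notch repeats, differed by 0.33 (SE 0.111), the ubiquitin ligase gene Neurl1a by 0.28 (SE 0.0915) and Tbl2, which encodes a protein of the endoplasmic reticulum membrane, by 0.30 (SE 0.107). Ears2, the mitochondrial glutamyl-tRNA synthetase gene, differed by 0.22 (SE 0.0902), and was the last gene taken by the rule, with Asns the first left out. The gut peptide gene Pyy differed by 0.30 (SE 0.106), Ccdc149 by 0.35 (SE 0.122) and the zinc finger gene Zfp455 by 0.28 (SE 0.111, and 0.13 without mTR KO 1 and mTR WT 2). Levels of Neurl1a and Pyy were close to background, at 4.24 to 4.62 and 4.10 to 4.56.

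**Figure D3:**
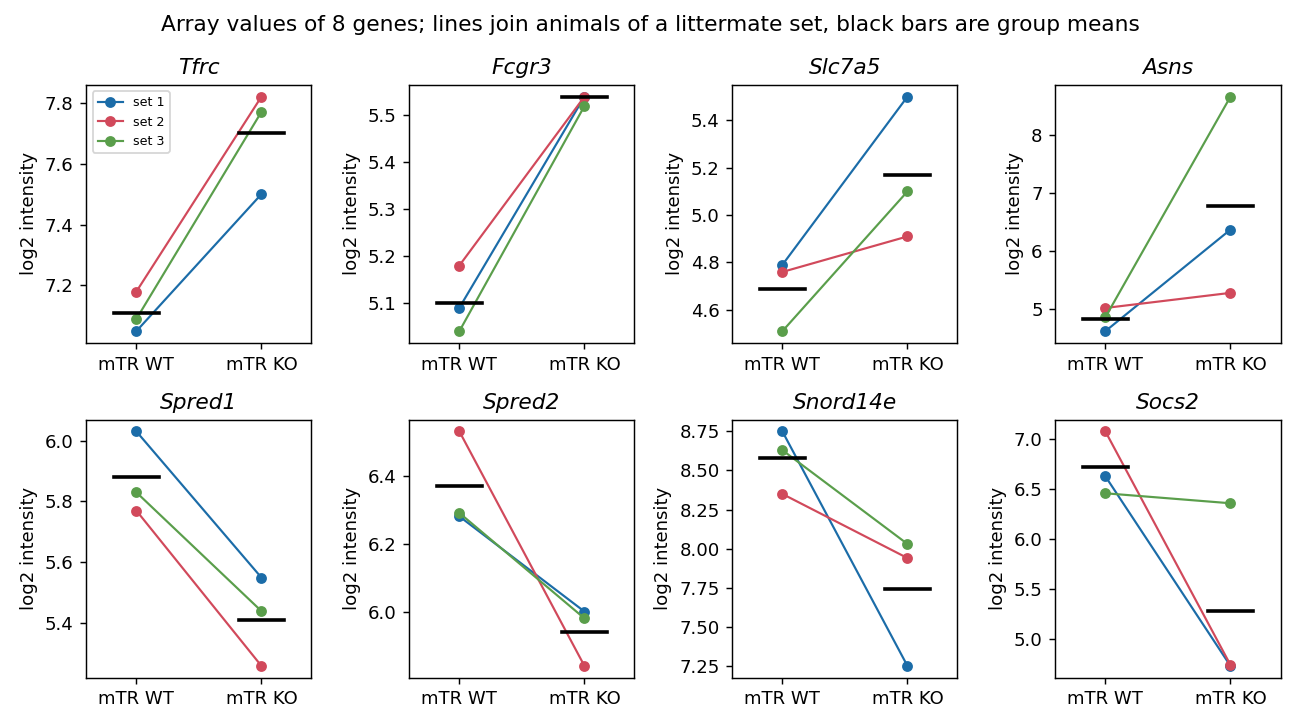
Log2 intensity (vertical axes, each with its own range) of 8 genes in mTR WT and mTR KO liver; each coloured line joins the WT and KO animal of a littermate set, and black bars are the means of 3. All 8 have the same direction in every set and no overlap between groups, but the sets are unequal for Asns, at 0.26 in set 2 and 3.81 in set 3, and for Socs2, at −0.10 in set 3 and −2.34 in set 2.

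On the lower side both liver-expressed members of the Spred family appeared together. Spred proteins sit at the membrane and hold back the activation of Raf by Ras, and so the ERK kinases. Spred1 read 5.55, 5.26 and 5.44 in KO against 6.03, 5.77 and 5.83 in WT. Each KO animal stood below each WT animal, and the sets differed by −0.48, −0.51 and −0.40 (mean −0.46, SE 0.118). Spred2 read 6.00, 5.84 and 5.98 in KO against 6.28, 6.53 and 6.29 in WT on one probe, a difference of −0.43 (SE 0.129), and its second probe differed by −0.48 (SE 0.163), again without overlap. The third member, Spred3, was below background. Across 29 measured genes of the Ras and ERK pathway 11 lay above 0 and 18 below (median −0.0236), and Spred1 and Spred2 alone had an unadjusted p under 0.05. With the replicate block there were 3 lower, Dusp6, Spred1 and Spred2, and 1 higher, Dusp9. The Ras GTPase-activating gene Nf1 read 7.31, 7.26 and 7.35 in KO against 7.42, 7.39 and 7.53 in WT. Its groups did not overlap either, at a small difference of −0.14 (SE 0.0857), and the kinase gene Braf differed by −0.15 (SE 0.106).

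The smallest unadjusted p among the named genes, 0.00135 in limma, belonged to Snord14e, a small nucleolar RNA of the U14 family made from an intron of the heat shock gene Hspa8. It read 7.25, 7.94 and 8.03 in KO against 8.75, 8.35 and 8.63 in WT, so that KO was lower by 1.51, 0.41 and 0.60 within sets. The mean difference was −0.84 (SE 0.2, 95% interval −1.28 to −0.40), or 1.79-fold lower in KO, and −0.60 without mTR KO 1. Copies of U14 in the same host gene are alike in sequence, so which of them the probe read is uncertain. Hspa8 itself differed by −0.04 (SE 0.163), and its other probes by −0.06 and −0.05. Of the 51 measured small nucleolar RNAs 33 lay above 0, with a median of 0.0449. That median was −0.561 without mTR KO 1 and mTR WT 2, a setting that keeps a set 1 array, where this class was high, in the WT group only. Snord14e itself was −0.71 in that setting.

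The other genes on the lower side have varied roles. Pcf11, which ends transcription at the cleavage site, read 6.28, 6.50 and 6.41 in KO against 6.63, 6.90 and 6.80 in WT. Its sets differed by −0.36, −0.40 and −0.39 (mean −0.38, SE 0.118). Polr2h, a subunit gene shared by the nuclear RNA polymerases, differed by −0.33 (SE 0.104), although its second probe differed by −0.07 with overlapping groups. Snapc3, of the complex that starts small nuclear RNA transcription, differed by −0.32 (SE 0.103), and Sap30, of the Sin3 histone deacetylase complex, by −0.29 (SE 0.1). Chmp2b, a membrane-scission factor gene, differed by −0.30 (SE 0.0945), and Fkbp7, a folding enzyme gene of the endoplasmic reticulum, by −0.33 (SE 0.108). Anapc15, a subunit gene of the anaphase-promoting complex, differed by −0.27 (SE 0.0899) on this probe and by 0.03 on its brighter second probe, so the probes disagree.

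A second choice asked for the largest difference that every littermate pair shared, whatever the spread between sets. On the higher side the largest mean difference was in Ddit4. Ddit4, an inhibitor of the growth kinase mTORC1 induced by stress and glucocorticoid, read 7.31, 5.48 and 6.58 in KO against 6.42, 4.78 and 6.02 in WT. Levels differed between sets by more than between genotypes, yet KO exceeded its littermate by 0.88, 0.70 and 0.55. It was 1 probe of the 20197 tested that lay past 0.5 in all 3 sets (0.00495%), and no probe lay past −0.5 in all 3 (0%). The mean difference was 0.71 (SE 0.678), with overlapping groups. Fkbp5, a glucocorticoid-induced co-chaperone gene, showed the same layout, with set differences of 0.87, 0.38 and 0.33 (mean 0.53, SE 0.53). Without mTR KO 1 and mTR WT 2, so with unmatched sets, Ddit4 gave −0.20 and Fkbp5 −0.42. Tubb2a, a beta-tubulin gene, read 8.01, 7.78 and 8.04 in KO against 7.56, 7.18 and 7.32 in WT without overlap (0.59, SE 0.242). The monocarboxylate transporter gene Slc16a6 differed by 0.37 (SE 0.291), the adenosine-forming ectoenzyme gene Nt5e by 0.39 (SE 0.39, and 0.11 without those arrays), the trefoil peptide gene Tff3 by 0.59 (SE 0.501, and 0.09 without mTR KO 3) and the small nucleolar RNA Snord35a by 0.41 (SE 0.693), the latter −0.32 without mTR KO 1 and mTR WT 2.

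On the lower side the same choice gave 10 genes with differences of −0.84 to −0.38. Besides Snord14e, Spred1 and Pcf11 these were Mak16, a ribosome assembly gene (−0.40, SE 0.195), Slu7, a splicing factor gene (−0.40, SE 0.301), Mrps10 of the mitochondrial ribosome (−0.50, SE 0.274), Myef2 (−0.44, SE 0.173), Kansl1l (−0.46, SE 0.197), the desmosomal cadherin gene Dsg1c (−0.51, SE 0.233) and Fam124a (−0.45, SE 0.165). The sets of Mak16 differed by −0.39, −0.43 and −0.38. Without mTR KO 1 and mTR WT 2 the values were −0.86 for Mrps10, −0.18 for Kansl1l and 0.00 for Slu7. Leaving out single arrays brought Mrps10 to −0.29 (mTR WT 1), Myef2 to −0.28 (mTR WT 3) and Slu7 to −0.12 (mTR KO 1). The smallest set difference of the last gene inside, Fam124a, was 0.321 in size, and that of the first outside, Polr3g, 0.320.

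The largest difference among the named genes belonged to the response to amino acid shortage, in which the kinases that sense uncharged tRNA or misfolded protein raise the factor ATF4, and ATF4 with C/EBP partners binds a composite element in its target genes. Asns, which makes asparagine and is a main ATF4 target, and Chac1, another such target that degrades glutathione, are shown because the first had a large difference and the second one near 0, while both windows hold a match to that element. The 250 bases before each start are from RefSeq on GRCm38.p6, 5′ to 3′ on the gene's strand, at chr6:7693210-7693459 (minus strand) for Asns and chr2:119350992-119351241 (plus strand) for Chac1. Capitals mark matches to TGATGNAA, searched on both strands.
Asns: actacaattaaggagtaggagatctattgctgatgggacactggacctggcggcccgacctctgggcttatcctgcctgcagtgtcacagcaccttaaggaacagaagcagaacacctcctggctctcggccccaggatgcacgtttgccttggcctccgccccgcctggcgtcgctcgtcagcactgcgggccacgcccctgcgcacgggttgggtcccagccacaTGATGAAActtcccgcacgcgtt
Chac1: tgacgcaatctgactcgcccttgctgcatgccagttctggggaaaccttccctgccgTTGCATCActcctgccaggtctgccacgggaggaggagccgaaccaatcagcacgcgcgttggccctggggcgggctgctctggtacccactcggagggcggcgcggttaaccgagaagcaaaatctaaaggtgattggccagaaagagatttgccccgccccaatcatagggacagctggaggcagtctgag
The Asns match begins 23 bases before the start and reads on the gene's strand. The Chac1 match begins 193 bases before the start and reads on the other strand. The motif was in 3.53% of 27025 promoter windows of that length, 1 per gene, and in 8 of the 26 list genes that had both a window and a measured value.

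Asns read 6.37, 5.28 and 8.66 in KO against 4.62, 5.02 and 4.86 in WT. The WT animals were alike, whereas the KO animals ranged widely, from 0.26 above the littermate in set 2 to 3.81 in set 3, so the mean difference of 1.94 had a wide error (SE 0.788, 95% interval 0.21 to 3.67). Without mTR KO 3 it was 0.99. Slc7a5, the gene of the transporter that brings in large neutral amino acids, read 5.50, 4.91 and 5.10 in KO against 4.79, 4.76 and 4.51 in WT. All KO values lay above all WT values (0.48, SE 0.176), and set 2 again differed least, by 0.15. The Slc7a5 difference was 0.32 without mTR KO 1, a pancreas-bearing array, and 0.35 without mTR KO 1 and mTR WT 2. Chac1, in contrast, read 4.57, 4.42 and 4.43 in KO against 4.45, 4.69 and 4.44 in WT, a difference of −0.06 (SE 0.222).

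Of the 34 measured ATF4 target genes 24 lay above 0, with a median of 0.044. In all 3 sets 6 were higher, where 12.3% of all genes were. Asns and Slc7a5 were the only members with an unadjusted p under 0.05, and the replicate block gave 4, Asns, Slc7a5, Wars and Ddit4, all higher. Among the 8 measured genes with the motif, namely Asns, Atf3, Chac1, Fgf21, Gars, Nupr1, Slc7a11 and Tars, 4 lay above 0, against 13 of 18 without it. The tRNA synthetase genes Wars and Sars were higher in every set, Wars by 0.27 (SE 0.16) and Sars by 0.15 (SE 0.113). So was the folate enzyme gene Mthfd2, by 0.25 (SE 0.162), but it was 0.11 without mTR KO 1. Without mTR KO 1 and mTR WT 2, Wars was 0.19, Sars 0.21 and Mthfd2 0.05. Nupr1 read 6.91 in mTR KO 1 and 4.10 to 4.60 in the other arrays. Its difference of 0.81 (SE 0.605) was −0.09 without that pancreas-bearing array. The median over the list was 0.0123 without mTR KO 1 and mTR WT 2.

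Chaperones of the endoplasmic reticulum, which fold secreted proteins, lay on the higher side in most members. Of 23 measured genes 19 lay above 0 (median 0.106), 9 were higher in all 3 sets where 12.3% of all genes were, and none was lower in all 3. None was called. Eif2ak3 alone had an unadjusted p under 0.05, and the replicate block gave 5 members, all higher, Dnajb11, Dnajb9, Eif2ak3, Hyou1 and Sdf2l1. Eif2ak3, the gene of the stress-sensing kinase PERK that acts upstream of ATF4, read 7.28, 7.0 and 7.02 in KO against 6.84, 6.75 and 6.64 in WT. Its groups did not overlap, at a difference of 0.36 (SE 0.155), or 0.27 without mTR KO 1. Hyou1, a large chaperone gene, read 9.12, 9.59 and 8.98 in KO against 8.97, 8.94 and 8.77 in WT (0.34, SE 0.193), with set 2 at 0.66 and the others at 0.16 and 0.21. Hspa5, the central chaperone gene BiP, differed by 0.16 (SE 0.177), Dnajb9 by 0.31 (SE 0.386), Sdf2l1 by 0.25 (SE 0.205) and the disposal factor gene Sel1l by 0.21 (SE 0.143). Leaving out mTR KO 2 brought Hyou1 to 0.16, Sdf2l1 to 0.02, Sel1l to 0.06 and Hspa5 to −0.01, and leaving out mTR WT 3 brought Dnajb9 to 0.06. Set 2 had the highest list mean, 0.266, against 0.0413 and 0.0976 in sets 1 and 3. Pancreas acinar cells are rich in these chaperones. The median over the list was 0.266 without mTR KO 1 and mTR WT 2, and 0.0155 without mTR KO 2. In the mTERT line 3 of 23 lay above 0, with a median of −0.143, but there the pancreas list read 8.88 in mTERT KO 1, 6.85 in mTERT WT 1 and 8.17 in mTERT WT 2, and its part in that median was not tested.

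**Figure D4:**
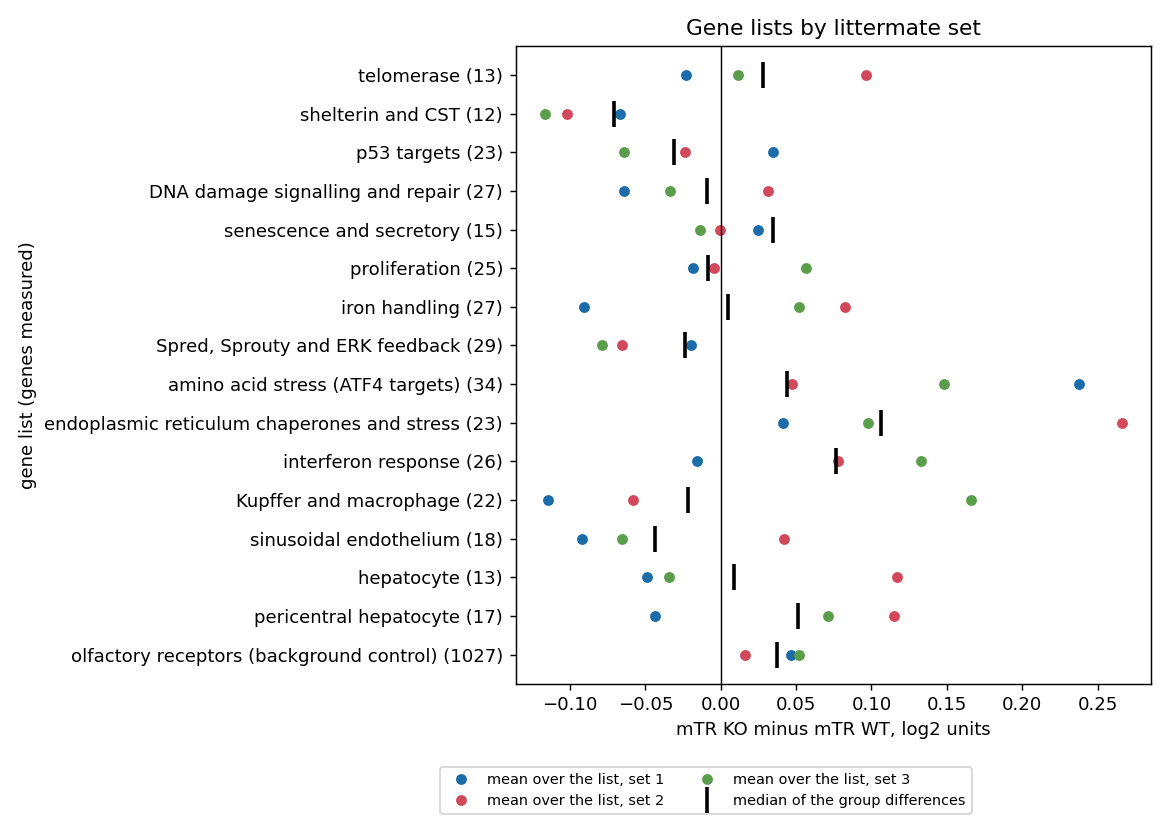
KO minus WT in log2 units (horizontal axis) for 16 gene lists (vertical axis, number of measured genes in brackets); coloured points are the mean over the list in each littermate set and black ticks the median of the group differences. The endoplasmic reticulum list has all 3 sets above 0, from 0.0413 to 0.266. So do the ATF4 target list, from 0.0472 to 0.238, and the olfactory receptor background control, from 0.016 to 0.0522. The shelterin and ERK feedback lists have all 3 below, and the p53 and repair lists lie on both sides.

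Genes that answer to pulses of growth hormone varied widely between animals of both groups. Growth hormone acts in male liver in bursts through STAT5, which switches on Socs2, Cish and Onecut1 and switches off Bcl6. Socs2 read 4.73, 4.74 and 6.36 in KO against 6.63, 7.08 and 6.46 in WT. It was low in KO 1 and KO 2 and at the WT level in KO 3, a difference of −1.44 (SE 0.856), and its second probe differed by −0.64 (SE 0.358), with no overlap on either probe. Onecut1 read 5.30, 5.32 and 6.57 in KO against 6.49, 7.39 and 5.97 in WT, again low in KO 1 and KO 2 (−0.89, SE 0.616, and −0.28 without mTR KO 1 and mTR WT 2). Bcl6 read 8.61, 7.08 and 8.62 in KO against 8.69, 4.82 and 8.19 in WT, so that the lowest value belonged to WT 2, where Socs2 and Onecut1 were highest (0.87, SE 0.86, and −0.59 without mTR KO 1 and mTR WT 2). Igfals, a slower growth hormone target that carries IGF1 in blood, differed by 0.26 (SE 0.236, and 0.07 without mTR WT 2). Of 15 genes of this axis 5 lay above 0 (median −0.0549), and none was called or had an unadjusted p under 0.05. The replicate block gave 2 members at such a p, Jak2 and Socs2, both lower.

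Interferon-response genes lay above 0 in 20 of 26 (median 0.0767), with 8 higher in all 3 sets, where 12.3% of all genes were. Usp18, a brake on interferon signalling, read 5.90, 5.42 and 5.84 in KO against 5.34, 5.38 and 5.40 in WT (0.35, SE 0.381), without overlap but with set 2 at 0.04, and Ifit3, an antiviral effector gene, differed by 0.17 (SE 0.34). In the mTERT line 3 of the 26 lay above 0 (median −0.18), but its list means were unequal, at −0.0621, 0.0794 and −0.652 in sets 1, 2 and 3. Those of the mTR line were −0.0158, 0.0777 and 0.133. Genes of the pericentral hepatocytes, which Wnt signals maintain, lay above 0 in 13 of 17 (median 0.0514), and those of the sinusoidal endothelium in 5 of 18 (median −0.0434). Olfactory receptors, whose probes are dim, lay above 0 in 689 of 1027 (median 0.0375, and −0.0269 without mTR KO 1 and mTR WT 2). Hepatocyte markers lay above 0 in 9 of 13 (median 0.00877, and −0.0304 without those arrays), ribosomal protein genes in 28 of 61 (median −0.00603) and respiratory chain genes in 19 of 40 (median −0.00103, and 0.0185 without those arrays).

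In several metabolic programmes of the liver the sets went opposite ways. Fatty acid oxidation and PPARA target genes lay above 0 in 11 of 28 (median −0.0265), but in 1 of 28 in set 1, 25 in set 2 and 9 in set 3, with list means of −0.236, 0.299 and −0.141. Lipogenesis genes lay above 0 in 11 of 20 (median 0.00602), with means of −0.144, 0.299 and 0.0047 in the 3 sets, and their median was −0.0546 without mTR KO 1 and mTR WT 2. Cholesterol genes lay above 0 in 10 of 20 (median −0.0012), with set means of −0.156, 0.159 and 0.0305, and their median was 0.268 without those arrays. Bile acid genes lay above 0 in 11 of 25 (median −0.02) and clock genes in 10 of 18 (median 0.0082, and −0.0031 without those arrays). No member of these 5 lists had an unadjusted p under 0.05, and the replicate block gave 4, Cyp7a1 and Mvd higher and Angptl4 and Stard4 lower. Cyp7a1, the rate-limiting enzyme gene of bile acid synthesis, read 8.96, 9.60 and 10.03 in KO against 8.44, 9.49 and 9.24 in WT, higher in each set but with overlapping groups (0.47, SE 0.429, 0.97 without mTR KO 1 and mTR WT 2, and 0.16 without mTR WT 1). Mvd, of cholesterol synthesis, differed by 0.31 (SE 0.152), and the glutathione transferase gene Gsta4 by −0.35 (SE 0.324, and −0.10 without mTR KO 3), lower in each set.

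The genes picked in the mTR line were then read in the mTERT line. Its 6 arrays entered the choice only through the shared estimate of spread, the filter on dim probes and the background level. The mTERT arrays carried other tissue too: the pancreas list read 8.88 in mTERT KO 1, 6.85 in mTERT WT 1 and 8.17 in mTERT WT 2, and the skeletal muscle list 6.81 in mTERT WT 1 and 6.33 in mTERT WT 3. Of 17 genes higher in mTR KO by either choice, 7 lay above 0 and 10 below in mTERT KO. Of 17 lower in mTR KO, 10 lay above 0 and 7 below. An unadjusted p under 0.05 in the mTERT line was given by 1 gene of each direction, where 1.4% of all tested probes had one, and both went the opposite way: Neurl1a at −0.23 (SE 0.0915) and Anapc15 at 0.25 (SE 0.0899), whose brighter second probe read −0.31 (SE 0.11) in the same animals. Tfrc differed by −0.32 (SE 0.164) in mTERT KO and Fcgr3 by −0.22 (SE 0.124), while Spred1 differed by 0.11 (SE 0.118) and Spred2 by 0.23 (SE 0.129). The direct test of the difference between the lines, mTR KO effect minus mTERT KO effect, called 0 of 20197 probes by limma (0%), with 293 at an unadjusted p under 0.05 (1.45%) and every adjusted p at 1. For Tfrc the difference between the lines was 0.90, and since the gene was chosen on the mTR contrast this is a description.

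**Figure D5:**
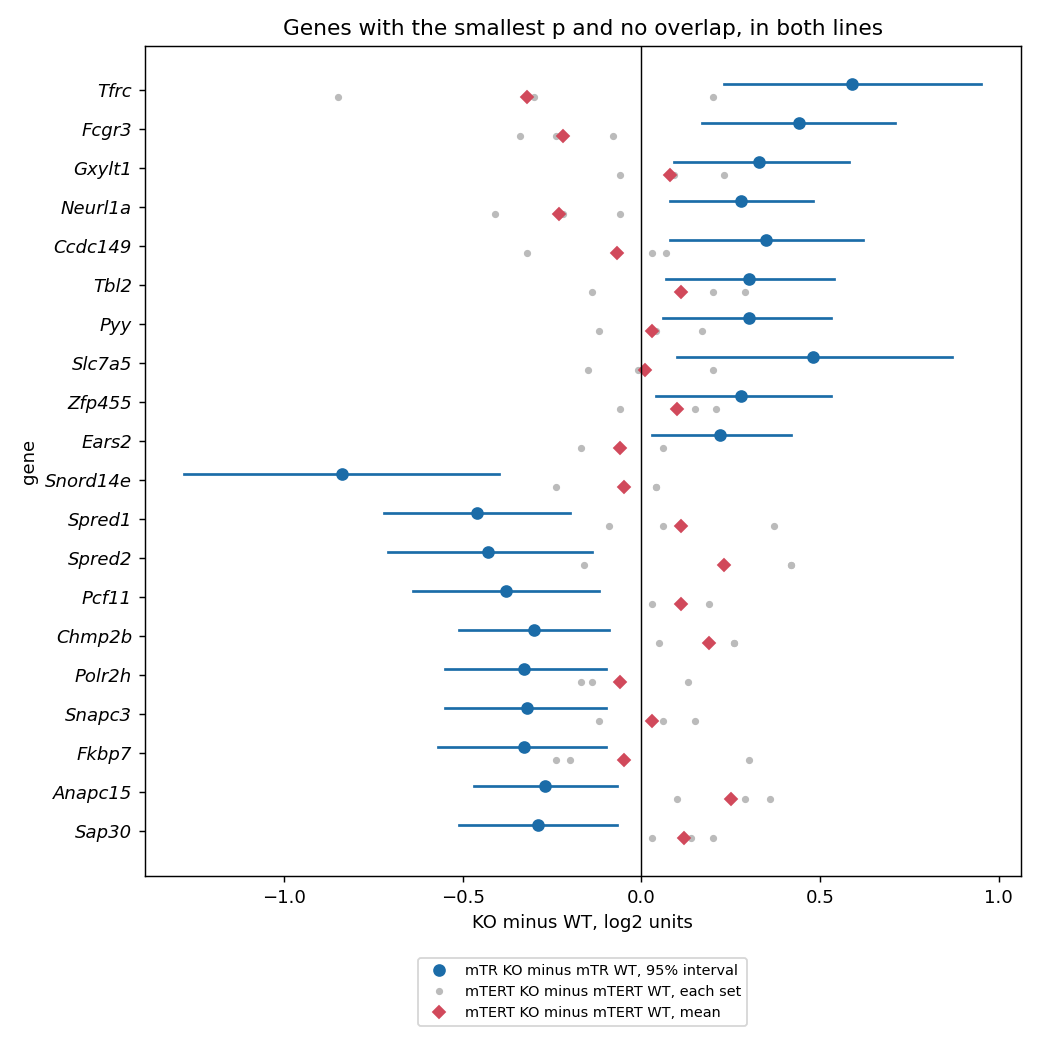
KO minus WT in log2 units (horizontal axis) of the 10 genes per direction with the smallest p and no overlap in the mTR line (vertical axis); blue points and lines are the mTR difference with its 95% interval, red diamonds the mean difference in the mTERT line and grey points its 3 sets. The mTERT means of the 10 higher genes lie on both sides of 0, 5 above and 5 below, and those of the 10 lower genes 7 above and 3 below.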

How the data were processed

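Total RNA of 6 mTR livers and 6 mTERT livers was measured on 12 one-colour Affymetrix arrays, 1 per animal, after extraction with Trizol, clean-up on columns and 1 round of random-primed amplification, per the labels' protocols. The values used are the deposited log2 intensities. GCOS 1.4, Affymetrix Expression Console and PLIER appear in the submitters' processing notes, with no role given. The base of the logarithm was read as 2 from the range of 2.62 to 13.83, and normalization is not given in the sources used here. For arrays, their number limits the precision.

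Groups come from the labels. limma 3.58.1 in R 4.3.3 fitted 4 group means over 12 arrays (lmFit, default eBayes), leaving out probes whose mean fell under the 30th percentile of probe means (3.898), two-sided, with Benjamini-Hochberg adjustment over 20197 probes and a threshold of 0.05. SE is the moderated standard error. In lists and counts of genes, a gene is the probe with the highest mean among its probes. Genes named by smallest p or by the shared difference are given on the probe that met that choice. For genes with several probes, that probe was thus picked on this contrast. Of the probes, 21789 had 1 symbol, 1621 several and 5443 none, 21698 were matched to RefSeq GRCm38.p6, and 19938 genes remained. The named genes are Terc and Tert, up to 10 per direction by smallest p without overlap, up to 10 per direction by the largest difference shared by all sets (both above background, without olfactory, vomeronasal and taste receptor genes, predicted genes or markers of other tissues), and up to 4 members per list. Others were chosen after their values were seen. Members and lists were chosen with earlier results of these data known.

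The series text states 3 independent sets of littermates. After removal of group means, KO and WT of the same number correlated at 0.458, 0.151 and 0.552, although KO 2 correlated with WT 3 at 0.464, so an alternative fit took the set as a replicate block. Alternatives were quantile normalization, median centring, other filters, other eBayes settings, the mTR arrays alone, array weights, the block, sets 2 and 3 alone, 1 probe per gene and each array left out. Leaving out mTR KO 1 and mTR WT 2 was added after seeing the data.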

Additional observations from a re-analysis of the deposited data

How the results depend on the processing

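The number of probes called between mTR KO and mTR WT was 0 in all alternatives except the fit on sets 2 and 3 alone, which called 1, Dmbt1 at −3.17, and leaving out single arrays gave 0 to 0. Probes at an unadjusted p under 0.05 numbered 133 to 294 when single arrays were left out (294 without mTR WT 2), 407 without both mTR KO 1 and mTR WT 2, 473 in sets 2 and 3, 851 with the replicate block, 890 with array weights, 378 without the filter and 129 with the stricter one. The split into higher and lower was 60 and 120 after median centring, 93 and 101 after quantile normalization, 94 and 95 with trend and robust settings and 203 and 175 without the filter. The test of the lines against each other called 0 probes throughout, with 1264 at an unadjusted p under 0.05 and a smallest adjusted p of 0.751 under the replicate block. The block changed no call.

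Of 44 list medians 6 kept their sign in all 11 alternatives, those of shelterin, ERK feedback, ATF4 targets, endoplasmic reticulum chaperones, interferon response and sinusoidal endothelium. The other 38 turned in at least 1, and 18 turned without mTR KO 1 and mTR WT 2. Among single genes directions turned in the following cases, and the cause was not tested. Array weights gave −0.01 for Tert, and sets 2 and 3 gave −0.19 for Nupr1. Without mTR KO 1 and mTR WT 2 the values were −0.20 for Ddit4, −0.42 for Fkbp5, −0.32 for Snord35a, −0.09 for Hamp, −0.59 for Bcl6, 0.08 for Terf1 and 0.16 for Ccng1. Leaving out single arrays gave −0.17 to 0.06 for Terc, −0.07 to 0.16 for Tert, −0.07 to 0.95 for both Fkbp5 and Snord35a, −0.09 to 1.28 for Nupr1, −0.11 to 0.02 for Chac1, −0.01 to 0.29 for Hspa5, −0.35 to 0.61 for Hamp, −0.33 to 1.60 for Bcl6, −2.61 to 0.17 for Dmbt1, −0.09 to 0.01 for Hspa8, −0.08 to 0.19 for Mdm2 and −0.25 to 0.05 for Ccng1. With 3 animals a group and low signal for Terc, small differences could not be resolved.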
